A study of Mus musculus with 6 samples.

Results

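Transcripts of 32 genes of cholesterol synthesis, uptake and efflux were followed in mouse liver, out of 54532 gene identifiers in the deposited tables. The genes were listed by their known roles, without a threshold on measured values: 4 sterol sensing genes, 8 of the mevalonate and isoprenoid steps, 12 of the steps from squalene to cholesterol, 4 of sterol transport and esterification, and 4 of efflux and its liver X receptor. Liver RNA from 3 wild-type (WT) libraries was compared with that from 3 libraries of mice described as having a liver-specific knockout of Arid2 (LKO), all listed as receiving no treatment. ARID2 is a subunit of the PBAF chromatin remodelling complex, and the title of the series sets the comparison in hepatic steatosis and turnover of the kinase JAK2. Strain, age, sex, diet and the Cre line behind the knockout are not stated in the sources used. They do not say that each library came from its own animal either, and the p-values therefore reflect only how far these samples spread. Where 3 values are given for a group, they stand in the order of replicates 1 to 3.

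Cells hold their cholesterol steady through SREBP2, a transcription factor encoded by Srebf2 that is made as a membrane-bound precursor in the endoplasmic reticulum. When sterols are low, SCAP carries the precursor to the Golgi, where it is cut and released to raise genes of synthesis and uptake. When sterols are high, INSIG proteins hold SCAP back, and oxysterols activate liver X receptors, which raise sterol exporters. The liver is the main site at which cholesterol is made, packed into lipoproteins and sent into bile.

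Promoter sequences are shown first, since SREBP2 acts with factors that bind CCAAT and GC boxes next to its own element. Windows from 250 bases before to 50 after each RefSeq start (GRCm38.p6, the assembly behind mm10) were found for 26 of the 32 genes. Both strands were searched for fixed letters, with matches allowed to overlap. A gene counted if any of its windows matched, so genes with several starts had more chances. A CCAAT box (CCAAT) lay in the windows of 22 of 26 members (84.6%), against 42.3% of 17492 protein-coding genes. Counted by window, it lay in 64.7% of 34 member windows, against 37.4% of all windows, coding or not. The GC box (GGGCGG) lay in 21 members (80.8%, against 49.2%) and the E-box (CACGTG) in 6 (23.1%, against 8.91%). The strict sterol regulatory element TCACNCCAC was in 1 member window, that of Hmgcs1, and in 1.41% of protein-coding genes. The liver X receptor direct repeat, a pair of perfect half-sites spaced by 4 bases, was in none of these windows of members. It was in none of the protein-coding genes either, so its absence does not set the members apart. Imperfect repeats were not searched. A match describes letters, not a bound site, and the shares carry no test.

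The stretches below are those of genes to which the results return, printed 5′ to 3′ along the gene's strand, with the motifs named beside each in capitals. Hmgcs1, the enzyme that makes HMG-CoA in the cytosol (chr13:119690101-119690350, plus strand), is shown because it held both the sterol element, 137 bases before the start, and 3 CCAAT boxes on the opposite strand before the start. Insig1 (chr5:28071162-28071362, plus strand) is shown with its CCAAT box and E-box. Insig2 has more than 1 RefSeq start, and the window of the most upstream one (chr1:121332590-121332839, minus strand) is shown, with 3 CCAAT boxes.
Hmgcs1: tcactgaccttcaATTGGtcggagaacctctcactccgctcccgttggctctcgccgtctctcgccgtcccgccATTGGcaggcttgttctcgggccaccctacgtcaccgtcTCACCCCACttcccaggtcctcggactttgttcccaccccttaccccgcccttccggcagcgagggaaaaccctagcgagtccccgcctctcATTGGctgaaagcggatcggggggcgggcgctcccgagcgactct
Insig1: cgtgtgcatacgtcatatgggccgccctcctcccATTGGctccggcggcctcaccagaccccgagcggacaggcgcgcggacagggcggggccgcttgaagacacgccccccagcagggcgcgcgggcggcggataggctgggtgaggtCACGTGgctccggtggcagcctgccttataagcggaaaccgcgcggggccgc
Insig2: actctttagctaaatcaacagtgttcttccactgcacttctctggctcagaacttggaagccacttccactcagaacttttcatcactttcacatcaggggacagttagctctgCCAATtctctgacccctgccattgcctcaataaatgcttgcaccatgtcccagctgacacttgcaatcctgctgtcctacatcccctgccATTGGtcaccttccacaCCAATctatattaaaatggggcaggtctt

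Abca1 (chr4:53159896-53160145, minus strand) is shown with its GC boxes and E-box in capitals. Abcg5 and Abcg8, whose products form 1 transporter, are transcribed away from each other, and the 109 bases between their starts (chr17:84683012-84683120, plus strand, read towards Abcg8) are printed in full. No searched letters matched in that stretch.
Abca1: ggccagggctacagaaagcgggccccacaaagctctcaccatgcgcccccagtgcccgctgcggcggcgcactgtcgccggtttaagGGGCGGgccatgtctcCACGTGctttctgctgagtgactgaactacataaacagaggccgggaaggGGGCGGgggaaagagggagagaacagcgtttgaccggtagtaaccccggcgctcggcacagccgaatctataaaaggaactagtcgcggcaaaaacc
Abcg5 to Abcg8: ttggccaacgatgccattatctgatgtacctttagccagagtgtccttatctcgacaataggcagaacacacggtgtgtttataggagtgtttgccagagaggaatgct

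Levels are FPKM, which are relative to the length of a gene's exons and to a library scale. The steps between values gave 13947787 to 18159285 reads per library. The transcripts of Arid2 did not separate the groups (2.65, 1.74 and 1.79 FPKM in WT; 2.55, 1.33 and 2.04 in LKO), so this transcript gave no check of the genotype labels, and WT and LKO are used here as labelled. The 2 libraries numbered 1 stood apart from the rest, with 2003 and 2368 genes at 1 to 5 reads, against 3913 to 4263 in the other 4. All 10 hepatocyte markers were detected, led by Alb at 24010 to 44282 FPKM.

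No genotype difference passed the test for any of the 32 genes. All 32 passed the filter of a mean of at least 0.5 FPKM over the 6 libraries. Fdps, fitted below 0, passed it only through WT replicate 1 (1.84 FPKM, with a mean of 0.505). Of the 32, 0 passed an adjusted p of 0.05 in either direction (limma-trend on log2(FPKM + 1), Benjamini-Hochberg adjustment over 11672 genes). Over all genes the share called was 0.0428% (0.00857% higher and 0.0343% lower). Of the 32, 20 were fitted above 0 and 12 below (62.5% above, against 54.1% of all genes), with a median log2 difference of 0.09, against 0.03 over all genes tested. The median was 0.31 without LKO replicate 1 and -0.10 without LKO replicate 3, so its sign depended on which libraries were used. An unadjusted p under 0.05 was found for 3 of 32 genes (9.38%, against 9.22% of all genes). These same 3, Insig2, Abca1 and Abcg5, were the only members whose WT and LKO values did not overlap. Non-overlap was found for 15.4% of all genes, 8.0% with LKO higher and 7.42% with LKO lower. Standard errors of the 32 log2 differences ran from 0.23 to 0.71. With limma's array quality weights, which weight each library by how closely it follows the fit, 2 members passed as higher (Abca1 and Idi1) and 1 as lower (Abcg5), where 10.2% of all genes passed.

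**Figure D1:**
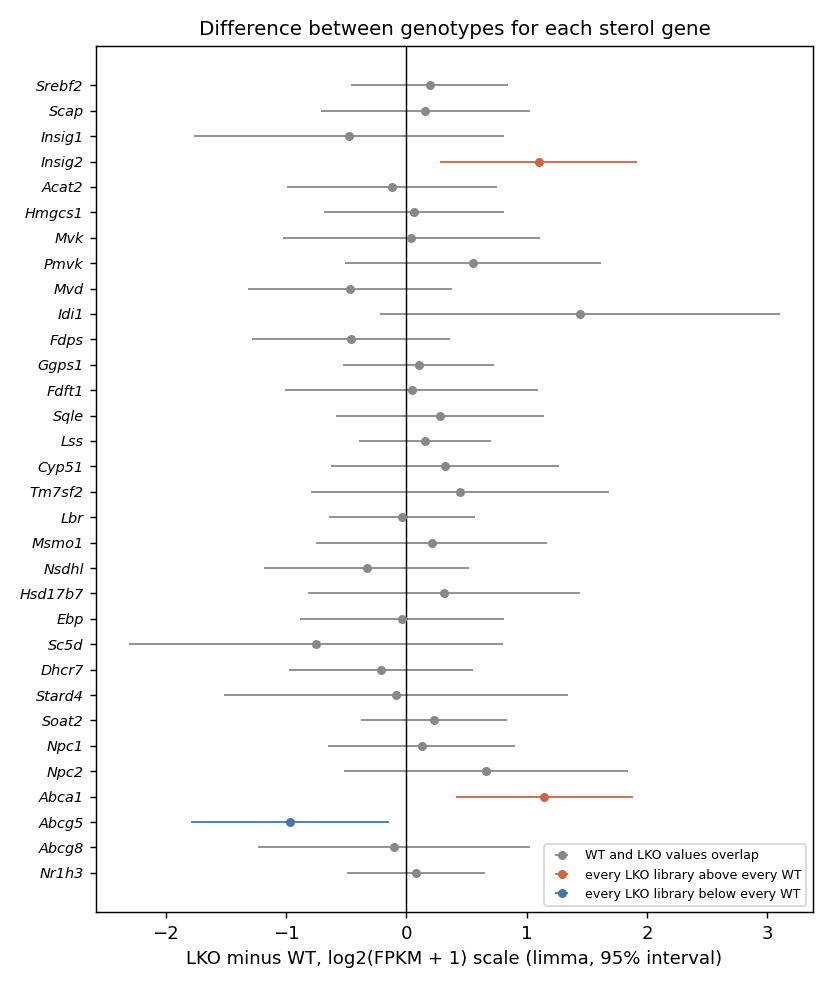
Log2 difference (LKO minus WT, log2(FPKM + 1) scale) of each of the 32 genes, in the order of the text, with its 95% interval from limma as a bar. Points lie on both sides of 0 from -0.97 (Abcg5) to 1.44 (Idi1), and the coloured points mark the 3 genes whose groups did not overlap.

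Levels spanned a wide range. Ebp, a sterol isomerase late in the pathway, had the highest mean, 97.7 FPKM, followed by Insig1 at 55.6, Abcg5 at 51.3, Nr1h3 at 37.7, Hmgcs1 at 34.1 and Sc5d at 32.9 FPKM. The first neighbours in that order overlapped over the 6 libraries, Ebp at 62.5 to 121 FPKM and Insig1 at 24.5 to 102. The lowest means were those of Ggps1 (1.90 FPKM), Lbr (1.06) and Fdps (0.505). Some levels were uncertain because reads can be shared with other genes. Transcripts of 6 other genes matched 91.4% of the 1382-base Fdps transcript at 95% identity or more, and Acat3 and Tcp1 together matched 65.6% of Acat2. The matched share was 54.7% for Fdft1, from Ctsb and Gm6781 together, and 33.3% for Idi1. The exons of Fdft1 overlap those of Ctsb, on the opposite strand, over 774 bases (18.3% of the Fdft1 exon bases). How such reads were counted, and whether strand was used, is not stated in the sources used.

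Among the sterol sensing genes, Insig2 was higher in every LKO library, while Insig1 was split within LKO. Insig2, which encodes an endoplasmic reticulum anchor of SCAP, was at 8.20, 15.7 and 10.8 FPKM in WT and at 28.2, 17.3 and 32.5 FPKM in LKO. The lowest LKO library lay just above the highest WT library. The means were 11.6 ± 3.80 and 26.0 ± 7.81 FPKM (SD, n = 3), and the log2 difference of 1.10 ± 0.35 (SE) did not pass (limma adjusted p = 0.389). With each library left out in turn it stayed between 0.90 and 1.36. The values sum over all Insig2 starts, so the start in use could not be read from them.

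Insig1 encodes the paralogue that is itself a classical SREBP2 target. It was at 44.5, 63.1 and 70.7 FPKM in WT, and at 28.6, 24.5 and 102 FPKM in LKO. LKO replicates 1 and 2 thus lay below every WT library and LKO replicate 3 above every one (log2 difference -0.48 ± 0.55 SE, limma adjusted p = 0.865). The ratio of Insig1 to Insig2 FPKM was 5.42, 4.03 and 6.53 in WT and 1.01, 1.41 and 3.14 in LKO. The ratio was lower in 3 of 3 LKO libraries than in any WT library (log2 difference -1.66; exact permutation test, two-sided, n = 3 per group, p = 0.1, the smallest this design allows, and 0.2 adjusted over the 2 ratios compared). Both ratios were chosen after the values had been seen.

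Srebf2 itself, the gene of SREBP2, was at 5.22, 5.47 and 4.83 FPKM in WT and at 3.999, 6.94 and 7.85 in LKO. WT values were close together and lay inside the LKO range (log2 difference 0.19 ± 0.28 SE, limma adjusted p = 0.897). Scap, the escort of SREBP2, ranged from 9.14 to 17.7 FPKM in WT and from 11.7 to 23.7 in LKO.

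**Figure D2:**
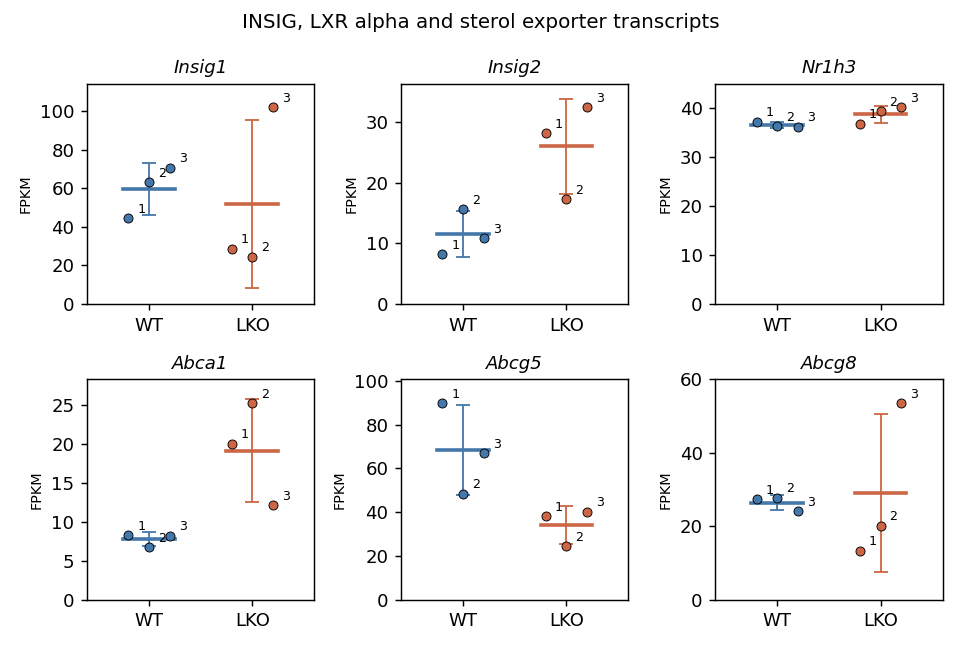
FPKM of Insig1, Insig2, Nr1h3, Abca1, Abcg5 and Abcg8 in each library, numbered by replicate, with the group mean as a horizontal line and the SD (n = 3) as a bar. Insig2 and Abca1 lie higher and Abcg5 lower in every LKO library, Insig1 and Abcg8 have LKO replicate 3 far above LKO replicates 1 and 2, and Nr1h3 stays between 36.2 and 40.2 FPKM.

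The 20 synthesis genes did not separate by genotype and spread widely inside LKO. Of the 20, 12 were fitted above 0 and 8 below (median log2 difference 0.05), where 54.1% of all genes were above 0. None passed limma's threshold, against 0.0428% of all genes, so the lack of calls does not set these genes apart. The WT and LKO ranges overlapped for every one of them, while the groups did not overlap for 15.4% of all genes. LKO replicate 3 exceeded LKO replicate 1 for 18 of 20 (90.0%), with a median log2 difference of 1.16 between these libraries. Over all genes tested, that held for 52.6%, with a median of 0.06. LKO replicate 1 was the lowest of the 6 libraries for 14 of the 20 (70.0%, against 23.3% of all genes), and LKO replicate 3 was the highest for 12 of them, against 25.9% of all genes.

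In the mevalonate and isoprenoid steps, Hmgcs1 was among the steadier genes, at 43.4, 24.1 and 33.2 FPKM in WT and 38.6, 27.1 and 38.0 in LKO. The LKO values lay inside the WT range (log2 difference 0.06 ± 0.32 SE, limma adjusted p = 0.975). Acat2, whose product condenses acetyl-CoA units at the entry to the pathway, ranged from 12.0 to 22.0 FPKM in WT and from 9.99 to 22.9 in LKO. Mvk, mevalonate kinase, was at 2.24, 4.57 and 9.49 FPKM in LKO, on both sides of its WT range of 2.89 to 6.01. Pmvk, the next kinase, followed the same order, at 5.05, 13.4 and 20.01 FPKM in LKO, against 6.54 to 8.76 in WT. Mvd, the decarboxylase that ends this stretch, did not: it was at 2.46, 4.20 and 2.83 FPKM in LKO and at 2.37, 6.33 and 6.34 in WT.

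Idi1, which interconverts the 2 isoprenoid building blocks, had the largest fitted difference among the members. It was at 0.474, 2.94 and 0.530 FPKM in WT, based on 32, 181 and 29 reads, and at 1.06, 5.11 and 13.2 FPKM in LKO, based on 47, 280 and 881 reads. LKO replicate 3 was 12.5 times LKO replicate 1, and WT replicate 2 lay above LKO replicate 1. The log2 difference of 1.44 ± 0.71 (SE) did not pass (limma adjusted p = 0.604) and ranged from 0.78 to 2.17 with 1 library left out. Fdps, farnesyl diphosphate synthase, was at 1.84, 0.095 and 0.472 FPKM in WT and at 0.150, 0.152 and 0.325 in LKO. Its WT mean rested on WT replicate 1 (149 reads, against 7 to 31 in the other 5 libraries), and its shared sequence, given above, leaves its level uncertain. Ggps1, which makes geranylgeranyl diphosphate for protein prenylation, ran against the others, highest in LKO replicate 1 (3.17 FPKM) and lowest in LKO replicate 3 (1.27), with 1.44 to 1.91 in WT.

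In the steps from squalene to cholesterol, Sqle, the squalene epoxidase that is a control point of the pathway, was at 3.23, 3.19 and 4.39 FPKM in WT and at 2.16, 6.10 and 6.58 in LKO. LKO replicate 1 lay below WT, and LKO replicates 2 and 3 above it (log2 difference 0.28 ± 0.37 SE, limma adjusted p = 0.891). This split was seen for Fdft1, squalene synthase, in part: its LKO values were 8.19, 18.6 and 25.1 FPKM, against 10.5 to 21.7 in WT. Msmo1 (7.47, 17.5 and 21.8 FPKM in LKO; 10.6 to 15.9 in WT), Hsd17b7 (2.90, 8.21 and 13.7; 4.16 to 7.25) and Cyp51 (9.72, 24.3 and 23.7; 10.3 to 17.1), which remove or reduce groups on the sterol ring, had LKO replicate 1 below and LKO replicates 2 and 3 above every WT library. So did Tm7sf2, a sterol C14 reductase, at 8.99, 29.1 and 29.9 FPKM in LKO and 9.75 to 24.1 in WT. Lbr, the nuclear envelope protein with the same activity, was far lower per length, at 0.919 to 1.15 FPKM in WT and 0.529 to 1.84 in LKO. Lss, lanosterol synthase, varied least of the 12, between 2.41 and 3.75 FPKM over all 6 libraries.

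Sc5d, a sterol desaturase, had the lowest fitted value of the synthesis genes. It was at 24.3, 60.5 and 31.0 FPKM in WT and at 7.89, 20.7 and 52.9 FPKM in LKO, a 6.70-fold range within LKO. The groups overlapped (log2 difference -0.75 ± 0.66 SE, limma adjusted p = 0.807). Ebp, the highest gene, was at 62.5, 121 and 118 FPKM in WT and at 78.9, 113 and 92.3 in LKO, so LKO lay inside WT. Nsdhl, a decarboxylating dehydrogenase, was at 9.44 to 19.96 FPKM in WT and 8.33 to 14.8 in LKO. Dhcr7, which acts at the end of the pathway, was at 8.89 to 11.8 FPKM in WT and at 5.53, 8.95 and 13.05 in LKO (log2 difference -0.21 ± 0.33 SE, limma adjusted p = 0.906).

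**Figure D3:**
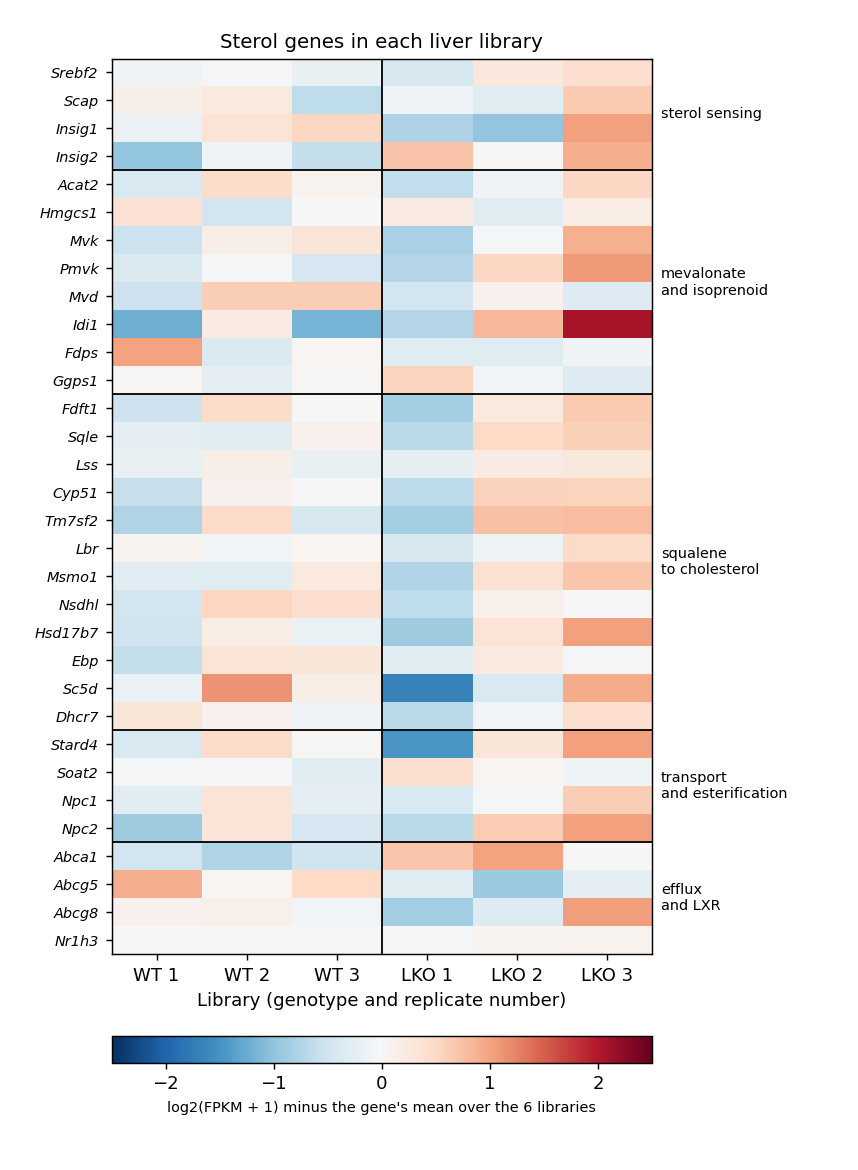
Level of each of the 32 genes in each library, as log2(FPKM + 1) minus the gene's mean over the 6 libraries (red higher, blue lower), grouped by role. LKO replicate 1 is mostly blue and LKO replicate 3 mostly red: they are the lowest library for 18 and the highest for 21 of the 32 genes.

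Of the transport and esterification genes, 3 of 4 were highest in LKO replicate 3. Stard4, a soluble carrier of cholesterol between membranes, was at 7.45, 14.3 and 10.2 FPKM in WT and at 3.02, 12.5 and 21.4 in LKO. The LKO libraries lay below, within and above WT, over a 7.08-fold range (log2 difference -0.09 ± 0.61 SE, limma adjusted p = 0.983). Npc2, which hands cholesterol over inside lysosomes, was at 3.04, 8.26 and 4.53 FPKM in WT and at 3.66, 10.6 and 14.2 in LKO (log2 difference 0.66 ± 0.50 SE, limma adjusted p = 0.769). Its membrane partner Npc1 ran from 7.49 to 11.6 FPKM in WT and from 6.77 to 14.5 in LKO. Soat2, the enzyme that esterifies cholesterol for lipoproteins, did not follow this order: it was highest in LKO replicate 1, at 24.4, 18.96 and 16.9 FPKM in LKO and 17.7, 17.6 and 15.1 in WT (log2 difference 0.23 ± 0.26 SE, limma adjusted p = 0.863).

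Among the exporters, Abca1 was higher and Abcg5 lower in every LKO library, Abcg8 was split within LKO, and the receptor gene Nr1h3 was level. Abca1, which loads cholesterol onto apolipoprotein A-I, was at 8.28, 6.76 and 8.23 FPKM in WT and at 20.02, 25.2 and 12.1 in LKO. Every LKO library lay above every WT library. The means were 7.76 ± 0.862 and 19.1 ± 6.59 FPKM (SD, n = 3), a 2.47-fold ratio, and the log2 difference of 1.15 ± 0.31 (SE) had the smallest p of the 32 genes but did not pass (limma unadjusted p = 0.00725, adjusted p = 0.319). It stayed between 0.93 and 1.43 with each library left out.

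Abcg5, a half-transporter that secretes sterols into bile, was at 89.8, 48.5 and 66.9 FPKM in WT and at 38.2, 24.3 and 40.2 in LKO. Every LKO library lay below every WT library. The means were 68.4 ± 20.7 and 34.2 ± 8.63 FPKM (SD, n = 3), and the log2 difference of -0.97 ± 0.35 (SE) did not pass (limma adjusted p = 0.455). Abcg8, its obligate partner, was at 27.4, 27.8 and 24.1 FPKM in WT and at 13.4, 20.2 and 53.6 in LKO. LKO replicates 1 and 2 were below every WT library, like Abcg5, and LKO replicate 3 was above (log2 difference -0.10 ± 0.48 SE, limma adjusted p = 0.973). The ratio of Abcg5 to Abcg8 was 3.28, 1.74 and 2.78 in WT and 2.85, 1.21 and 0.750 in LKO, so the groups overlapped (exact permutation test, two-sided, n = 3 per group, p = 0.3). The exons of this pair share 82 bases on opposite strands. Nr1h3, the gene of liver X receptor alpha, was the steadiest member, at 37.3, 36.3 and 36.2 FPKM in WT and 36.8, 39.3 and 40.2 in LKO (log2 difference 0.08 ± 0.25 SE, limma adjusted p = 0.955).

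On the FPKM scale, the order of the libraries in synthesis gene level followed other properties of those libraries. As the mean of centred log2(FPKM + 1) over the 20 synthesis genes, LKO replicates 1 to 3 lay at -0.57, 0.17 and 0.52, and WT replicates 1 to 3 at -0.27, 0.16 and -0.00. The SD was 0.56 in LKO and 0.22 in WT, and the group means were 0.04 and -0.04. The share of reads on the mitochondrial genome was 27.6%, 7.72% and 4.76% in LKO, and 20.7%, 10.2% and 18.5% in WT. Ordered by that share, the 6 libraries came in exactly the reverse order of the synthesis mean. LKO replicate 2 (0.17) and WT replicate 2 (0.16) lay close and changed places on other scales. They were at 0.01 and 0.15 after rescaling to the summed FPKM of genes outside the mitochondrial genome. After quantile normalization they were at 0.10 and 0.15. LKO replicate 1 (-0.63 and -0.53) and LKO replicate 3 (0.65 and 0.43) were still at the ends. The first principal component over all 11672 genes, with 43.7% of the variance, gave the same order as the synthesis mean, from -46.9 in LKO replicate 1 to 51.7 in LKO replicate 3. The part of the mitochondrial share, RNA quality or library preparation in this order was not tested. Taken singly, 2 of the 20 synthesis genes were higher at every step of it, against 1.82% of all genes.

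**Figure D4:**
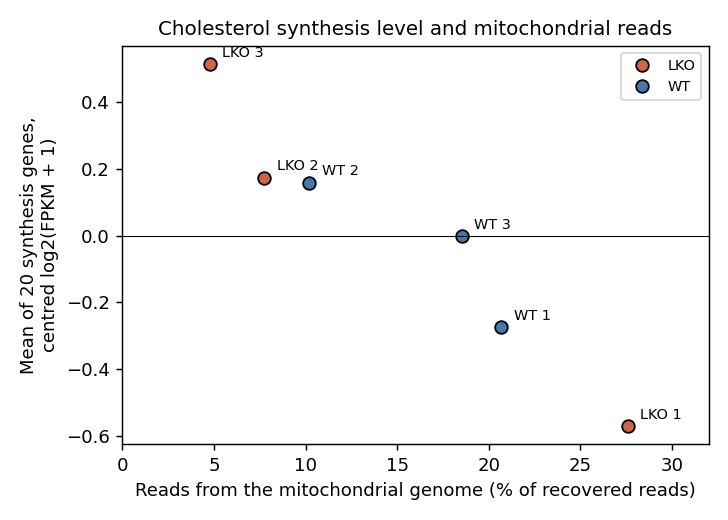
Mean of centred log2(FPKM + 1) over the 20 synthesis genes (y axis) against the percentage of recovered reads from the mitochondrial genome (x axis), 1 point per library. The points descend from LKO replicate 3 (4.76%, 0.52) to LKO replicate 1 (27.6%, -0.57), with the WT libraries between.

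The median spread inside the groups was larger for these genes than over all genes tested. The comparison was not matched for level, and on this scale the spread of low genes is understated. The median SD of log2(FPKM + 1) over the 32 was 0.39 in WT and 0.53 in LKO, against 0.27 and 0.39 over all genes tested, and LKO had the larger SD for 26 of 32 (81.2%, against 68.7%). The mean level of the 12 genes from squalene to cholesterol ranged from -0.71 to 0.53 in LKO, and that of the 4 efflux genes from -0.13 to 0.23. The efflux mean averages genes of different order. In LKO, Abcg8 had a 4.01-fold range, highest in replicate 3, and Abca1 a 2.08-fold range, lowest in replicate 3. The ranges of Abcg5 and Nr1h3 were 1.65-fold and 1.09-fold.

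Other genes of sterol metabolism, from a list of 58 with 53 tested, also held no call. None passed (limma, 0 higher and 0 lower, against 0.0428% of all genes). Of the 53, 40 were fitted above 0 and 13 below (75.5% above, against 54.1% of all genes), and the median log2 difference was 0.12. Groups did not overlap for 3 of 53 (5.66%, against 15.4% of all genes): Scarb1, Ncor1 and Mbtps2, all higher in LKO. Scarb1, the receptor through which liver takes up cholesterol from high-density lipoprotein, was at 7.26, 10.4 and 12.4 FPKM in WT and at 19.5, 21.3 and 15.5 in LKO (log2 difference 0.86 ± 0.28 SE, limma adjusted p = 0.412). Osbpl8, an oxysterol-binding protein relative, was at 3.32 to 4.08 FPKM in WT and 1.43 to 3.91 in LKO.

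Srebf1, which encodes the SREBP that drives fatty acid synthesis, repeated the split of Insig1. It was at 55.3, 60.9 and 50.5 FPKM in WT and at 18.9, 16.0 and 106 in LKO, with LKO replicates 1 and 2 below and LKO replicate 3 above WT (log2 difference -0.77 ± 0.67 SE, limma adjusted p = 0.805). Of the liver X receptor partners and targets, Abcg1, an exporter to high-density lipoprotein, was at 0.142 to 0.685 FPKM in WT and 0.427 to 0.929 in LKO, and Ncor1, a corepressor, at 4.05 to 4.61 and 4.80 to 6.64.

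The isoprenoid branch, which uses the same precursors for dolichol, ubiquinone and prenyl groups, had 11 of 13 genes fitted above 0 (84.6%, against 54.1% of all genes, median 0.12). Of the 13, 0 were called by limma (0.0428% of all genes) and 0 were without overlap (15.4% of all genes). Rce1, a protease of prenylated proteins, was at 5.25, 4.58 and 7.13 FPKM in WT and 15.3, 14.1 and 6.77 in LKO (log2 difference 0.92 ± 0.35 SE, limma adjusted p = 0.482), and Nus1, a dolichol synthesis subunit, at 5.58 to 7.72 and 6.42 to 12.4. Nceh1, a cholesteryl ester hydrolase, was at 1.94 to 7.402 FPKM in WT and 6.10 to 11.003 in LKO, and Lcat, which esterifies plasma cholesterol, at 299.8 to 347 and 320.3 to 462. Cyp39a1, an oxysterol hydroxylase, was at 0.697, 3.09 and 0.881 FPKM in WT and 1.80, 6.47 and 6.50 in LKO (log2 difference 1.197 ± 0.49 SE, limma adjusted p = 0.521), and Cyp7b1, of the alternative bile acid route, at 49.6 to 101 and 34.1 to 62.2.

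Markers of some other cell types differed between the same LKO libraries. In whole tissue, fewer cells of a type and less RNA per cell cannot be told apart. The summed FPKM of the 10 hepatocyte markers was 31999 to 54882 in WT and 42603 to 62192 in LKO. Of these 10, 7 were fitted above 0 and 3 below (Ttr -0.21, Asgr1 -0.08 and Serpina1c -0.24). Their median log2 difference was 0.43, with none called by limma. Hnf4a, Tat and Fgb, 3 of the 10 (30.0%, against 8.0% of all genes), were higher in every LKO library. The summed FPKM of 8 neutrophil and monocyte markers was 17.0, 12.4 and 3.48 in LKO and 1.15 to 4.18 in WT, with Ly6g at 0 in all 6 libraries. Its largest part in LKO, S100a9, rested on 50, 47 and 16 reads in LKO and 12, 0 and 20 in WT. Only 4 of the 8 markers passed the filter of 0.5 FPKM. For 10 sinusoidal endothelial markers the sum was 57.9, 23.5 and 23.4 FPKM in LKO and 33.4 to 48.0 in WT, and for 10 Kupffer cell and macrophage markers 76.7, 28.7 and 75.1 in LKO and 27.9 to 70.5 in WT. Sums ran from 25.7 to 37.5 FPKM in LKO and 26.7 to 32.3 in WT for 10 stellate markers, and from 9.44 to 31.7 and 15.0 to 25.3 for 8 biliary markers. Those of 7 erythroid markers were 91.3 to 149 FPKM in LKO and 138.8 to 330.3 in WT, and those of 9 T, B and plasma cell markers 0.822 to 2.11 and 2.43 to 7.04. Only 3 of the 8 biliary markers and 2 of the 9 T, B and plasma cell markers passed the filter of 0.5 FPKM. Mzb1, the largest part of the T, B and plasma cell sum in WT, rested on few reads. It had 79, 17 and 36 in WT and 0, 1 and 5 in LKO. The part of these cell types in the levels of the sterol genes was not tested.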

How the data were processed

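Liver RNA was sequenced in 6 libraries; groups and replicate numbers come from the sample titles. Per the submitters' processing notes, the tools were DESeq2 1.20.0, featureCounts 1.5.0-p3, HISAT2 2.0.5 and CASAVA, and the build mm10, with no roles given; the annotation and strand setting are not stated there. The authors deposited 1 FPKM value per gene and library. The unit was read from the values: FPKM times merged exon length (GENCODE vM21, which held 54495 of 54532 identifiers and all 32 members) fell on steps of 1 read per library, with 96.1% to 96.4% of values whole within 0.05 read. The library scale followed median-of-ratios size factors (ratio 0.995 to 1.00), not read sums, though no label says so. At this depth 3 reads on 1 kb were 0.156 to 0.236 FPKM, counting error only.

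Differences were fitted with limma-trend (limma 3.58.1, R 4.3.3) on log2(FPKM + 1), robust empirical Bayes, genotype alone, over the 11672 genes averaging 0.5 FPKM or more; fold changes of low genes are understated on this scale. The fit was also run on simulated data in which genes were drawn independently. That run held no effect shared by the genes of a library, so it does not show how the fit behaves on these libraries. Shared sequence was found with blastn 2.17.0 (95% identity, at least 100 bases) against GENCODE transcripts. Promoters are RefSeq's. Other tools were Python 3.11.15, pandas 2.3.3 and matplotlib 3.10.9. The members and lists were chosen with earlier results of these data known. All members are named; of the other sterol list, up to 2 genes per group with the smallest p, and Mbtps2 in addition after its values were seen. Items that this rule would name but that are withheld are not reported here.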

Additional observations from a re-analysis of the deposited data

How the results depend on the processing

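Genes called over the whole table numbered 1 higher and 4 lower; they numbered 0 and 1 with no filter on low values, 0 and 3 after rescaling to TPM or after quantile normalization, 621 and 574 with array quality weights, and 1 and 1 with both libraries numbered 1 left out. With 1 library left out, higher calls ran from 0 to 13 and lower calls from 0 to 4. Sterol gene calls were 0 under every setting except array quality weights, which gave 2 members higher (Idi1, log2 difference 1.81, limma adjusted p = 0.0432; Abca1, 1.38, 0.0158), 1 lower (Abcg5, -1.23, 0.0276) and 1 gene of the wider sterol list higher. Over the alternatives the adjusted p of Abca1 ranged from 0.0158 to 0.891. Whether replicate numbers mark pairs could not be told from these values. Deviations of same-numbered libraries correlated at 0.49, 0.30 and -0.02, and the 0.49 of the libraries numbered 1 was the highest of all WT and LKO combinations. LKO replicate 3 correlated best with WT replicate 2 (0.45). A replicate block left 0 genes higher and 0 lower, but with 6 libraries it leaves less to estimate spread from, so it cannot decide the question. The sign of the log2 difference was the same under every setting for 17 members, Insig2, Abca1 and Abcg5 among them, and changed for 15. Quantile normalization gave -0.0054 for Scap, -0.071 for Hmgcs1, -0.036 for Mvk, -0.10 for Fdft1, 0.037 for Lbr and -0.051 for Nr1h3. Array quality weights gave -0.13 for Hmgcs1, -0.19 for Mvk, -0.042 for Ggps1 and 0.17 for Stard4, and voom on recovered reads gave -0.0047 for Fdft1. Without both libraries numbered 1 the values were -0.11 for Ggps1, 0.19 for Lbr, 0.17 for Dhcr7, 0.41 for Stard4 and 0.34 for Abcg8. Rescaling without mitochondrial genes, chosen after seeing the data, gave -0.00019 for Hmgcs1, -0.026 for Mvk and -0.020 for Fdft1. With 1 library left out, ranges that crossed 0 were -0.13 to 0.35 for Scap, -0.41 to 0.16 for Acat2, -0.15 to 0.26 for Hmgcs1, -0.39 to 0.45 for Mvk, -0.15 to 0.29 for Ggps1, -0.28 to 0.48 for Fdft1, -0.29 to 0.16 for Lbr, -0.076 to 0.64 for Msmo1, -0.12 to 0.84 for Hsd17b7, -0.35 to 0.13 for Ebp, -0.48 to 0.073 for Dhcr7, -0.62 to 0.62 for Stard4, -0.15 to 0.35 for Npc1 and -0.65 to 0.31 for Abcg8. The cause of these changes was not tested. Depth limits Fdps and Idi1 most, with under 50 reads in 5 and 3 libraries.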
